A study of Mus musculus with 36 samples.

Results

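The transcripts of 9 genes of hepatic glucose production were followed in mouse liver: the gluconeogenic enzymes Pck1, Pck2, G6pc, Fbp1, Pcx and Mdh1, and the glucagon pathway genes Gcgr, Creb1 and Crtc2. The genes were chosen by name, as 9 of the 38283 genes in the count table, and all 9 were among the 13945 genes that passed the filter on low counts. RNA was sequenced from whole liver of 36 male C57Bl/6J mice aged 16 weeks and kept on chow. Wild-type mice and mice carrying the Pik3r1 Y657* knock-in, labelled Y657X and here called WT/Y657*, were compared in 3 feeding states with 6 mice in each group: fed ad libitum, fasted for 16 h, and refed chow for 6 h after such a fast. The knock-in is heterozygous and is present in every tissue, so the liver was studied in an animal whose other organs carry the same allele. Pik3r1 encodes the regulatory subunits of phosphoinositide 3-kinase, through which insulin signals, and this truncating mutation causes SHORT syndrome in humans.

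Gluconeogenesis makes glucose from lactate, amino acids and glycerol, and in the liver it sustains blood glucose during fasting. Pyruvate carboxylase and phosphoenolpyruvate carboxykinase open the route, fructose-1,6-bisphosphatase acts in its middle, and glucose-6-phosphatase releases free glucose. Glucagon binds its receptor on hepatocytes, raises cyclic AMP and activates protein kinase A, which phosphorylates CREB and lets its coactivator CRTC2 enter the nucleus, while insulin acts through PI3K and Akt to restrain transcription of Pck1 and G6pc.

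Total counts ran from 8839481 to 19542778 per mouse, with a median of 13596664.5. Each library came from a separate mouse, and no 2 libraries of a group were alike within sampling noise. A stop codon is not visible in gene counts, so these data do not check the genotype labels. Of 8 hepatocyte markers 7 were found in the table, and their summed level was 60957 to 100243 CPM (counts scaled to library size) over the 36 mice. Single mice are named as in the labels, with WT for wild-type, MT for WT/Y657* and a mouse number. Fasted and refed mice carried numbers from a low or a high series, with 3 mice of each genotype in each series. Fed mice carried numbers of their own, and among them the wild-type mice had mostly the lower ones. Genotype and mouse number can therefore hardly be told apart in the fed state, nor in genotype differences in fasting response, which use the fed mice. Every comparison of fasted or refed mice with fed mice also set different numbers against each other. Feeding state and mouse number cannot be told apart in these comparisons. Feeding state also went with the point in the fast and refeeding sequence at which the liver was taken, and these cannot be told apart.

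The DNA just upstream of 3 of the enzymes is shown because the transcripts of Pck1, G6pc and Fbp1 moved in different ways with feeding. The sequences are RefSeq windows of the GRCm38.p6 build, numbered from -1 at the base before the RefSeq start. Pck1 and G6pc are cut back to the start of the gene in GENCODE M21, except for 1 base that completes a motif in G6pc. Capitals mark matches to TTACGTCA, a cyclic AMP response element, to TTACGTAA, a palindrome that differs from it in its end, and to TGTTTTG, a core bound by forkhead factors.
Pck1, chr2:173152823-173153047, plus strand: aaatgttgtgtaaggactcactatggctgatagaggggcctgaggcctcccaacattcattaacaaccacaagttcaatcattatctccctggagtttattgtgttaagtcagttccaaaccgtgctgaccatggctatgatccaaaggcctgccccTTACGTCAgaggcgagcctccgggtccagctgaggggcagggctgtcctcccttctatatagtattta
G6pc, chr11:101367466-101367561, plus strand: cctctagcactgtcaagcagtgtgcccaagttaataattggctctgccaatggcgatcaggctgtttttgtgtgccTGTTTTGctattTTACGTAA
Fbp1, chr13:62888283-62888532, minus strand: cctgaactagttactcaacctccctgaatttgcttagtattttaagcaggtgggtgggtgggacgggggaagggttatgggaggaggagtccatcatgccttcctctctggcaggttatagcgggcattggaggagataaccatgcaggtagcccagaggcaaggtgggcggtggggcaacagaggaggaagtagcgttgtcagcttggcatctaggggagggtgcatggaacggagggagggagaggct

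The printed stretches were shortened only for display, and the search covered whole windows of 250 bases. Windows were found for 8 of the 9 genes, with a pair of windows for Pcx, and Crtc2 was not in the table of windows. Both strands were searched. TTACGTCA was found at -93 to -86 of Pck1 and in 0.447% of the 32851 windows in the table. TTACGTAA was found at -162 to -155 of G6pc and in 0.113% of all windows; this motif was added to the search after the G6pc sequence had been read. TGTTTTG was found at -174 to -168 of G6pc and at -159 to -153 of Pck2, and in 5.56% of all windows. The full palindrome TGACGTCA (1.55% of windows) and TGTTTAC (3.17%) were in none of the windows of these genes. The half-site TGACG, held by 17.8% of all windows, was found only inside the Pck1 element. The Fbp1 window held none of the 6 motifs.

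Per kilobase of exon, Pck1 stood highest in fed wild-type liver, with a level of 731 ± 183 CPM per kb (SD, n = 6). Fbp1 followed at 486 ± 64.9, G6pc at 257 ± 218, Mdh1 at 239 ± 26.04 and Pcx at 131 ± 10.5 CPM per kb. Single mice of Pck1 and Fbp1, of Fbp1 and G6pc, and of G6pc and Mdh1 overlapped in this order, whereas Mdh1 lay above Pcx in every mouse. Among the control genes, Gcgr stood at 78.5 ± 4.73 CPM per kb, far above Creb1 at 2.19 ± 0.199 and Crtc2 at 1.58 ± 0.164, and the mitochondrial enzyme Pck2 was lowest at 0.574 ± 0.152. These ranks use all annotated exon bases of a gene, which counts retained introns and long transcript ends and lowers the values of Pck2 (7806 bases) and Creb1 (13742 bases). In fed WT/Y657* liver Fbp1 came first at 815.03 ± 135 CPM per kb, ahead of Pck1 at 605 ± 158, although mice of the pair overlapped. After refeeding G6pc dropped below Gcgr in the order, to 76.2 ± 22.01 CPM per kb in wild-type mice, with a level of 34.2 ± 25.2 in WT/Y657* mice. Refed mice of this pair of genes overlapped in the wild-type group and did not in the WT/Y657* group.

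**Figure D1:**
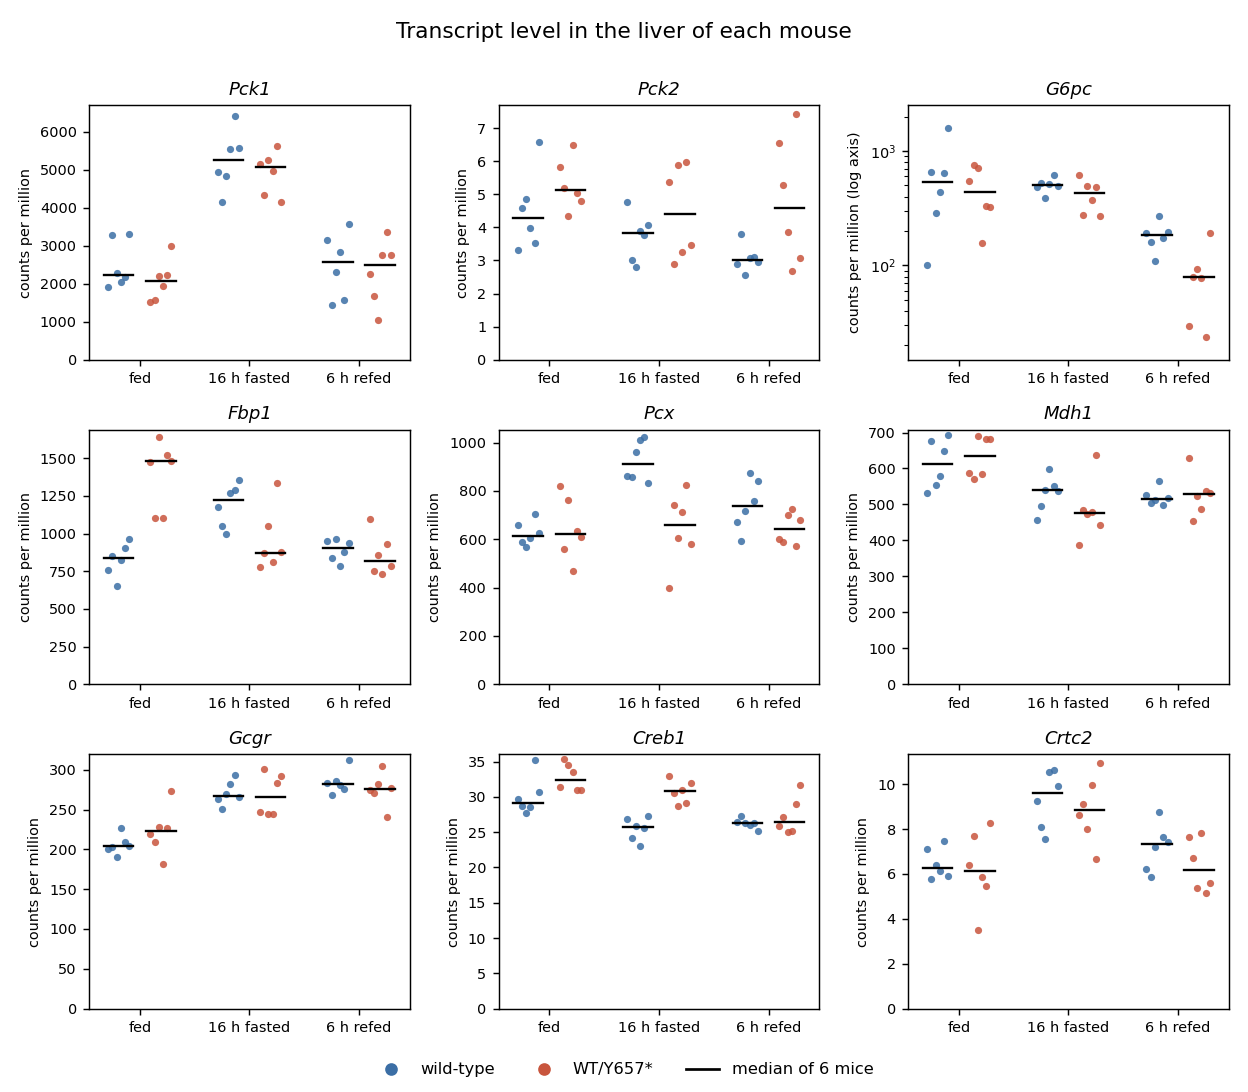
Level of each of the 9 transcripts in CPM (vertical axes, from 0 except for G6pc, which is on a log axis) in each mouse, by feeding state and genotype; bars are medians of 6 mice. The fed WT/Y657* mice lie above all fed wild-type mice for Fbp1, the fasted WT/Y657* mice lie below all fasted wild-type mice for Pcx and above them for Creb1, and G6pc is low after refeeding in both genotypes.

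Fasting raised the transcripts of several enzymes in wild-type liver. Of the 9 genes, 5 rose and 1 fell (edgeR quasi-likelihood test, adjusted p under 0.05), where 32% of all genes tested were called, 14.5% higher and 17.5% lower. In WT/Y657* liver 3 rose and 2 fell, where 32.9% were called, 15.2% higher and 17.7% lower. The groups of all 6 genes called in wild-type mice did not overlap (17.6% of all genes), whereas in WT/Y657* mice those of Pck1 alone did not (11.5%). The median log2 fold change of the 9 was 0.40 in wild-type liver, with -0.09 for WT/Y657*, against 0.01 and -0.01 over all genes.

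Pck1 encodes cytosolic phosphoenolpyruvate carboxykinase, which turns oxaloacetate into phosphoenolpyruvate, and lies at chr2:173153048-173159273 (ENSMUSG00000027513). In wild-type mice its level ran from 1925 to 3308 CPM when fed (median 2228) and from 4160 to 6418 when fasted (median 5249). In WT/Y657* mice it ran from 1524 to 3002 CPM (median 2060.3) and then from 4144 to 5629 (median 5056). All fasted mice therefore lay above all fed mice in both genotypes, by 2.09-fold and 2.37-fold. The responses did not differ detectably between genotypes, with a difference in log2 fold change of 0.18 and a 95% interval of -0.43 to 0.79 (adjusted p = 0.807). Refeeding returned Pck1 to 1447 to 3559 CPM in wild-type mice, with 1036 to 3349 in WT/Y657* mice, below every fasted mouse of the same genotype, with log2 fold changes of -1.08 and -1.09 (SE 0.22 for both). Refed and fed mice overlapped, with refed against fed differences of -0.01 (SE 0.22) and 0.15 (SE 0.22).

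G6pc encodes the catalytic subunit of glucose-6-phosphatase, which completes both gluconeogenesis and glycogen breakdown, and lies at chr11:101367561-101377903 (ENSMUSG00000078650). Fed wild-type mice ranged from 100.2 to 1604 CPM (median 539), a coefficient of variation of 84.8%, and fasted wild-type mice from 389 to 612 (median 502). Fed WT/Y657* mice ranged from 158 to 753 CPM (median 439.7) and fasted ones from 272 to 612 (median 428). Fasted values lay inside the fed range in both genotypes, and no response to the fast was called, with log2 fold changes of -0.30 (SE 0.46, adjusted p = 0.667) and -0.17 (SE 0.46, adjusted p = 0.816). The direction in wild-type mice rested on 1 animal, since without fed mouse ALC_WT_860 the value was 0.25 (adjusted p = 0.72), and limma-voom on all mice gave 0.14.

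Refeeding lowered G6pc. Wild-type mice fell to 109 to 271 CPM (median 183) and WT/Y657* mice to 23.5 to 192 (median 78.7), and in each genotype every refed mouse was below every fasted mouse. The log2 fold changes were -1.45 (SE 0.47, adjusted p = 0.0182) and -2.34 (SE 0.48, adjusted p = 0.000365). Their difference of -0.89 (SE 0.65) was not called (adjusted p = 0.564), and its 95% interval ran from -2.17 to 0.39. Against fed mice, refed G6pc gave log2 fold changes of -1.75 (adjusted p = 0.00577) and -2.51 (adjusted p = 0.000266). No refed wild-type mouse was below the lowest fed one, whereas 5 of 6 refed WT/Y657* mice were below all fed ones.

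Fbp1 encodes fructose-1,6-bisphosphatase of liver and kidney and lies at chr13:62864753-62888282 (ENSMUSG00000069805). Wild-type mice ran from 654 to 967 CPM when fed (median 839) and from 998 to 1355 when fasted (median 1222), with no overlap. WT/Y657* mice ran from 1101 to 1639 CPM when fed (median 1479) and from 777 to 1337 when fasted (median 874), so that 5 of 6 fasted mice were below every fed one. Fasting thus raised Fbp1 in wild-type mice by 1.44-fold (log2 fold change 0.52, SE 0.12, adjusted p = 0.000975) and lowered it to 0.688 of its fed level in WT/Y657* mice (-0.54, SE 0.12, adjusted p = 7e-04). The responses differed between genotypes by -1.06 (SE 0.17, adjusted p = 0.000583), in a contrast where 4.35% of all genes were called, 2.59% with a positive and 1.76% with a negative difference. Fbp1 was the only one of the 9 genes called there, and the 24 fits that left out 1 mouse gave values from -1.19 to -1.01, all called. The fed mice enter this difference, and among them genotype and mouse number can hardly be told apart, so that limit holds here too.

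Pcx encodes pyruvate carboxylase, the mitochondrial enzyme that makes oxaloacetate from pyruvate, and lies at chr19:4510472-4621752 (ENSMUSG00000024892). Fed wild-type mice ran from 568 to 705.9 CPM (median 615) and fasted ones from 831 to 1021 (median 912), a rise of 1.48-fold (log2 fold change 0.56, SE 0.13, adjusted p = 0.000626). Fed WT/Y657* mice ran from 470.2 to 821 CPM (median 621) and fasted ones from 397 to 822 (median 659), a log2 fold change of 0.002 (SE 0.13). The groups separated in wild-type mice but overlapped in WT/Y657* mice. The difference between the responses was -0.56 (SE 0.18) and missed the threshold (adjusted p = 0.0616). It passed under scaling by library size only (adjusted p = 0.0307), with a minimum of 10 counts in every library (0.0497) and by DESeq2 (0.0362). It also passed without WT/Y657* mouse ALC_MT_858 (-0.60, adjusted p = 0.045), ALC_MT_866 (-0.64, 0.0316) or ONF_MT_922 (-0.65, 0.0276).

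Mdh1 encodes cytosolic malate dehydrogenase, which returns oxaloacetate and NADH to the cytosol, and lies at chr11:21556787-21572367 (ENSMUSG00000020321). It shares 52 exon bases with Wdpcp on the opposite strand, which had 1235 counts in all against 268367 for Mdh1, and reads there could belong to either gene if strand was not used in counting. Fed and fasted wild-type mice overlapped, at 533 to 692 CPM (median 613) and 455 to 599 (median 539), a log2 fold change of -0.21 (SE 0.09, adjusted p = 0.08). That change was called without fed mouse ALC_WT_847 (-0.25, adjusted p = 0.0474) or fasted mouse ONF_WT_918 (-0.25, adjusted p = 0.0499). WT/Y657* mice fell from 571 to 689 CPM (median 635) to 386 to 636 (median 477), a log2 fold change of -0.39 (SE 0.09, adjusted p = 0.00131), and 5 of 6 fasted mice were below all fed ones. The difference between genotypes of -0.18 (SE 0.13) was not called (adjusted p = 0.49).

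Pck2 encodes the mitochondrial form of phosphoenolpyruvate carboxykinase and lies at chr14:55540266-55551242 (ENSMUSG00000040618). It had 24 to 116 counts per mouse, so its values carry more counting error than those of the other enzymes. Over all 6 groups it ran from 2.58 to 7.44 CPM, and neither fasting (-0.27, SE 0.22, and -0.23, SE 0.21) nor refeeding (-0.28, SE 0.22, and 0.10, SE 0.21) was called in wild-type or WT/Y657* mice. The refed against fed difference in wild-type mice was -0.55 (SE 0.22) and missed the threshold (adjusted p = 0.0555), and it passed without mouse ALC_WT_847 (adjusted p = 0.0385), ALC_WT_856 (0.0436) or RF6_WT_816 (0.0469).

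Gcgr encodes the glucagon receptor and lies at chr11:120530699-120538986 (ENSMUSG00000025127). Fed wild-type mice ran from 189.8 to 227 CPM (median 204), fasted ones from 250.5 to 293 (median 268) and refed ones from 268 to 313 (median 282). Both later states lay above the fed state in every mouse, with log2 fold changes of 0.40 (SE 0.08, adjusted p = 7.82e-05) after the fast and 0.47 (SE 0.08, adjusted p = 1.34e-05) after refeeding. In WT/Y657* mice the corresponding values were 0.27 (SE 0.08, adjusted p = 0.00547) and 0.30 (SE 0.08, adjusted p = 0.00269), and single mice overlapped. Unlike Pck1, Gcgr was not lower in refed than in fasted mice, with log2 fold changes of 0.07 and 0.03 (SE 0.08 for both). The WT/Y657* fasting response missed the threshold when only the libraries compared were fitted (adjusted p = 0.056).

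Creb1 encodes the transcription factor CREB and lies at chr1:64532645-64604548 (ENSMUSG00000025958). It moved against the receptor in wild-type mice: fed mice ran from 27.7 to 35.3 CPM (median 29.2), fasted ones from 23.01 to 27.3 (median 25.7) and refed ones from 25.2 to 27.2 (median 26.4). The fasted and refed mice all lay below the fed mice, with log2 fold changes of -0.24 (SE 0.07, adjusted p = 0.00397) and -0.20 (SE 0.06, adjusted p = 0.0216). The refed difference was not called without fed mouse ALC_WT_856 (-0.15, adjusted p = 0.0905), under scaling by library size only (-0.12, adjusted p = 0.219), or with no filter on low counts (adjusted p = 0.0592). In WT/Y657* mice fasting gave -0.09 (SE 0.06, adjusted p = 0.286), and refed against fed mice -0.27 (SE 0.06, adjusted p = 0.00204). The drop from the fasted to the refed state in WT/Y657* mice, -0.17 (SE 0.06, adjusted p = 0.0382), was close to the threshold and was lost in 8 of the 12 fits without 1 mouse, with values from -0.15 to -0.17.

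Crtc2 encodes the CREB coactivator that insulin signalling keeps out of the nucleus, and lies at chr3:90254163-90264125 (ENSMUSG00000027936). It had 57 to 173 counts per mouse. Wild-type mice rose from 5.79 to 7.45 CPM (median 6.26) when fed to 7.56 to 10.6 (median 9.59) when fasted, with no overlap, and WT/Y657* mice from 3.49 to 8.26 (median 6.12) to 6.67 to 10.95 (median 8.86), with overlap. The log2 fold changes were nearly equal at 0.53 in both genotypes (SE 0.15 for both, adjusted p = 0.00643 and 0.00691). Their difference was -0.01, with a 95% interval of -0.43 to 0.42. Refeeding gave -0.48 in WT/Y657* mice, which was called (SE 0.15, adjusted p = 0.0144; 0.0509 under scaling by library size only), and -0.38 in wild-type mice, which was not (SE 0.15, adjusted p = 0.055). The wild-type value was called without fasted mouse ONF_WT_824 (adjusted p = 0.0465) or ONF_WT_825 (0.0383), without refed mouse RF6_WT_896 (0.0325) and by DESeq2 (0.0408). It was also called with DESeq2 size factors (0.0479), at least 10 counts in every library (0.0456), only the libraries compared (0.0213) and mouse number series as a covariate (0.0487). The refeeding responses of the genotypes differed by -0.10 (edgeR quasi-likelihood, adjusted p = 0.877).

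**Figure D2:**
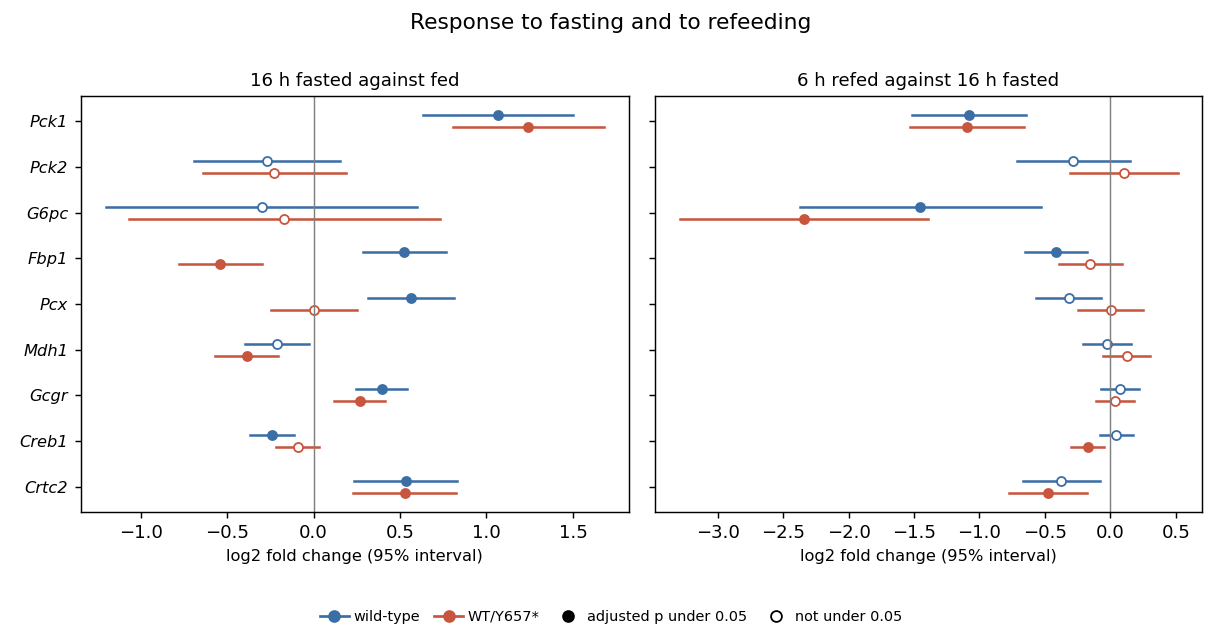
Log2 fold change of each transcript (horizontal axes) after the 16 h fast against the fed state, and after 6 h of refeeding against the fast, in wild-type and WT/Y657* mice; lines are 95% intervals and filled points have an adjusted p under 0.05. Pck1 rose and fell by about the same amount in both genotypes, Fbp1 moved in opposite directions on fasting, and G6pc fell only on refeeding.

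On refeeding, 3 of the 9 genes fell in wild-type mice (Pck1, G6pc and Fbp1), where 30.2% of all genes were called and 13.7% were lower, and 4 fell in WT/Y657* mice (Pck1, G6pc, Crtc2 and Creb1), where 31.3% were called and 14.2% were lower. The median log2 fold change of the 9 was -0.32 and -0.15, against 0.002 and -0.008 over all genes. In wild-type mice the groups of those 3 genes did not overlap (16.9% of all genes), and in WT/Y657* mice those of Pck1 and G6pc did not (11.9%). Each refeeding response shares its fasted mice with the fasting response of that genotype, so that a high fasted level enters both. For Fbp1 the wild-type value was -0.42 (SE 0.12, adjusted p = 0.00853), and refed mice ran from 786 to 963 CPM. In WT/Y657* mice it gave -0.15 (SE 0.12, adjusted p = 0.362), at 730.5 to 1099 CPM when refed, and all refed mice were below all fed mice (-0.69, SE 0.12, adjusted p = 5.12e-05). Pcx gave -0.32 in wild-type (SE 0.13, adjusted p = 0.0532), which was called without mouse ONF_WT_920 (-0.35, adjusted p = 0.0494), RF6_WT_896 (-0.37, 0.0331) or RF6_WT_901 (-0.36, 0.0377). This Pcx value was also called by DESeq2 (0.0356), with DESeq2 size factors (0.0455) and with at least 10 counts in every library (0.04). The same held with only the libraries compared (0.00878) and with mouse number series as a covariate (0.036). No gene of the 9 was called for a genotype difference in the refeeding response, where 2.06% of all genes were called (0.595% positive and 1.46% negative). By the edgeR quasi-likelihood test 1 of the 9, Creb1, was under 0.05 before adjustment only (-0.22, SE 0.09, adjusted p = 0.222).

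Refed mice were also set against fed mice. In wild-type mice Gcgr was higher and G6pc and Creb1 lower, where 27.5% of all genes were called, 13.2% higher and 14.3% lower. The groups of Gcgr and Creb1 did not overlap there, as for 14% of all genes. In WT/Y657* mice Gcgr was higher and G6pc, Fbp1, Mdh1 and Creb1 lower, where 26.1% were called, 13% higher and 13.1% lower, and the groups of Fbp1 alone did not overlap (9.11% of all genes). Mdh1 gave -0.26 in WT/Y657* mice (SE 0.09, adjusted p = 0.0326) and gave -0.24 in wild-type mice (SE 0.09, adjusted p = 0.0529). The first of these was lost without WT/Y657* mouse ALC_MT_859, ALC_MT_868, ALC_MT_869, RF6_MT_814, RF6_MT_817 or RF6_MT_897 (adjusted p from 0.0539 to 0.0882), and the wild-type value was called without mouse ALC_WT_847, ALC_WT_849 or RF6_WT_896 (adjusted p from 0.0327 to 0.0444).

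Genotype was then compared within each feeding state. In fed mice 1 of the 9 genes was called, Fbp1, where 2.37% of all genes were called (1.21% higher and 1.15% lower) and 1.07% had groups that did not overlap. All 6 WT/Y657* mice (1101 to 1639 CPM) lay above all 6 wild-type mice (654 to 967), a 1.68-fold difference (log2 fold change 0.75, SE 0.12, adjusted p = 0.00133), which placed Fbp1 at rank 4 of all genes by p. The other enzymes did not separate by genotype when fed: the log2 fold change of Pck1 was -0.27 (95% interval -0.70 to 0.16), of G6pc -0.40 (-1.30 to 0.50) and of Pcx 0.04 (-0.21 to 0.29). The G6pc value turned to 0.15 without wild-type mouse ALC_WT_860.

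The fed Fbp1 difference went together with mouse number. Within the only run of neighbouring numbers that held both genotypes (ALC_WT_856 to ALC_WT_860), 3 WT/Y657* mice exceeded 2 wild-type mice by 0.57 on the log2 scale. With blocks of neighbouring numbers as a covariate in a fit of the 12 fed libraries, the difference was 0.59 (SE 0.17, adjusted p = 0.906) and 0 genes of the whole table were called; edgeR then had 1 block with both genotypes to work from. It was called in all 12 fits without 1 mouse and with only the 12 fed libraries and no block.

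Single markers of liver zones and of other cells were called between fed genotypes, where 2.37% of all genes were. Fbp1 is known as an enzyme of periportal hepatocytes. All 6 periportal markers were in the table, and their summed level was 2810 to 4394 CPM for wild-type against 3845 to 5207 for WT/Y657* mice, with overlap and with 1 of 6 called higher (Gls2, 0.64). All 6 pericentral markers summed to 5741 to 7370 CPM and 4403 to 6304, again with overlap and with 1 of 6 called lower (Slc1a2, -0.84). The median log2 fold change was 0.33 for the periportal and -0.68 for the pericentral list, against 0.008 over all genes. The 6 stellate cell markers summed to 258 to 363 CPM and 369 to 536, with no overlap and with 1 of 6, Dcn, called higher (0.43). Of the lymphocyte markers 5 of 6 were tested and 1 was called higher, Nkg7 (2.78, SE 0.61, adjusted p = 0.0132), with sums of 10.1 to 17.1 and 13.3 to 48.5 CPM. The 6 Kupffer cell markers summed to 181 to 236 and 176 to 668 CPM, with a median log2 fold change of 0.86 and 0 of 6 called. None of these markers was at 0 in every mouse, and their part in the Fbp1 difference was not tested. In whole tissue, a change in the share of a cell type and a change in RNA per cell cannot be told apart.

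In fasted mice 2 of the 9 genes were called, Pcx lower and Creb1 higher, where 13.1% of all genes were called (6.63% lower and 6.43% higher) and 5.04% had groups that did not overlap. Pcx ran from 831 to 1021 CPM in wild-type and from 397 to 822 in WT/Y657* mice, so that every WT/Y657* mouse lay below every wild-type mouse. Its log2 fold change was -0.52 (SE 0.13, adjusted p = 0.00492), and the difference of means was -0.66 in the low and -0.45 in the high number series. Creb1 ran from 23.01 to 27.3 CPM in wild-type and from 28.8 to 32.9 in WT/Y657* mice, again with no overlap, a 1.21-fold difference (0.27, SE 0.07, adjusted p = 0.00436) that was 0.26 in the low and 0.28 in the high series. Both were called in all 12 fits without 1 mouse. Fbp1 gave -0.32 in fasted mice and missed the threshold (adjusted p = 0.0791), and it passed without WT/Y657* mouse ONF_MT_922 (-0.44, adjusted p = 0.00958).

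Pck1 (-0.10, 95% interval -0.53 to 0.34), G6pc (-0.27, -1.17 to 0.63), Gcgr (-0.01, -0.16 to 0.14) and Crtc2 (-0.07, -0.37 to 0.22) gave no call between fasted genotypes. Over all genes, 13.1% were called between fasted genotypes, 6.63% lower and 6.43% higher. Pericentral markers moved with genotype here, at 10619 to 13402 CPM for wild-type against 2702 to 9757 for WT/Y657* mice, and 5 of 6 were called lower, among them Glul (-0.77), Oat (-0.71) and Lgr5 (-0.90). The periportal sum overlapped at 2964 to 3890 and 2965 to 5717 CPM, and 0 of 6 were called. Lyve1, 1 of 6 endothelial markers, was higher in fasted WT/Y657* mice (1.32, SE 0.39, adjusted p = 0.0218), with overlapping sums of 320 to 344 and 317 to 370.1 CPM. The median log2 fold change of the endothelial list was -0.03, so Lyve1 does not stand for the list. Dcn, 1 of 6 stellate cell markers, was also higher (0.41, SE 0.12, adjusted p = 0.015), with overlapping sums of 302 to 361 and 333 to 486 CPM and a list median of 0.21. The part of any of these markers in the Pcx and Creb1 differences was not tested.

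In refed mice 0 of the 9 genes were called by the edgeR quasi-likelihood test, where 0.0287% of all genes were called (0.0215% higher and 0.00717% lower) and 0.624% had groups that did not overlap, and DESeq2 and limma-voom called 0 as well. Unadjusted p-values under 0.05 were found for 2 of the 9, Pck2 (log2 fold change 0.65, SE 0.21, adjusted p = 0.295) and G6pc (-1.16, SE 0.47, adjusted p = 0.405). Pck2 was 2.58 to 3.79 CPM for wild-type against 2.69 to 7.44 for WT/Y657* mice, where 4 of 6 mice exceeded all wild-type mice. For G6pc, 5 of 6 WT/Y657* mice were below all wild-type mice, and the difference of means was -1.31 in the low and -1.57 in the high number series. The summed pericentral markers did not overlap between genotypes, at 8572 to 11322 and 4191 to 8501 CPM, although 0 of 6 were called, and their part in these values was not tested.

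**Figure D3:**
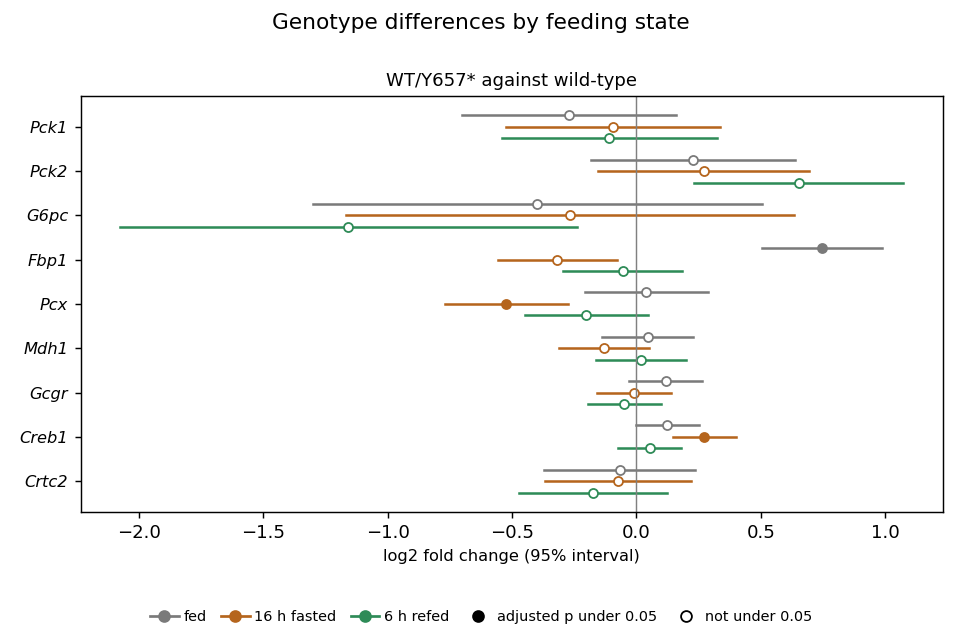
Log2 fold change of each transcript in WT/Y657* against wild-type mice (horizontal axis) in the fed, 16 h fasted and 6 h refed state; lines are 95% intervals and filled points have an adjusted p under 0.05. Fbp1 is called in fed mice, Pcx and Creb1 in fasted mice, and no transcript in refed mice.

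Other genes of the pathway were counted from lists grouped by role. Of 16 genes that bring substrates into gluconeogenesis, fasting raised 10 for the wild-type and 8 for the WT/Y657* mice and lowered none, where 14.5% and 15.2% of all genes were raised and 17.5% and 17.7% lowered, with median log2 fold changes of 0.45 and 0.33 against 0.01 and -0.01 over all genes. They included Gyk, glycerol kinase (1.53 and 1.62), Slc16a1, a lactate and pyruvate carrier (1.20 and 1.05), and Ldha, lactate dehydrogenase (1.01 and 1.02). On refeeding 4 of the 16 fell and 2 rose in each genotype, a share called near the 30.2% and 31.3% over all genes. Got1, cytosolic aspartate aminotransferase, gave -1.76 and -2.13, and Slc16a1 -1.30 and -1.24. Between genotypes, in fed mice 1 of the 16 was higher (Mpc2, a subunit of the mitochondrial pyruvate carrier, 0.29), where 2.37% of all genes were called, in fasted mice 2 were higher (Sdsl, a serine dehydratase-like enzyme, 1.34, and Mpc2, 0.31) and 2 lower, among them Gpd1, glycerol-3-phosphate dehydrogenase (-0.56), where 13.1% of all genes were called, and in refed mice none was called.

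A further list of 11 genes held steps shared with glycolysis, the terminal phosphatase system, and also Fbp2 and Mdh2, which belong to neither. Of these 11, fasting raised 1 and lowered 4 in each genotype, where 32% and 32.9% of all genes were called. The 1 raised was Fbp2, the muscle form of fructose bisphosphatase, by 2.63 and 3.21 in wild-type and mutant liver, so no gene of a step shared with glycolysis was called higher. Slc37a4, the glucose-6-phosphate carrier that feeds G6pc, gave -0.62 in wild-type liver. Eno1, enolase, gave -0.66 in WT/Y657* mice, and its fasting response differed between genotypes (-0.61, SE 0.17, adjusted p = 0.0343). No gene of this group was called between genotypes in any feeding state, where 2.37% of all genes were called in fed, 13.1% in fasted and 0.0287% in refed mice.

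Of 5 listed enzymes of the glycolytic direction and their regulators, fasting lowered 3 for the wild-type and 4 for the WT/Y657* mice, where 17.5% and 17.7% of all genes were lowered, and refeeding raised 2 in each, where 16.5% and 17.1% were raised. Pklr, liver pyruvate kinase, gave -1.98 and -3.33 in the 2 genotypes on fasting. Pfkfb3 and Pfkfb1, which make and break down the activator of phosphofructokinase, gave -2.16 and -0.94 in fasted wild-type mice. Between genotypes 1 of the 5 was called in fed, 1 in fasted and 0 in refed mice, where 2.37%, 13.1% and 0.0287% of all genes were called. Pfkl, liver phosphofructokinase, was lower in fasted WT/Y657* mice (-0.26, SE 0.08, adjusted p = 0.0239). Gckr was higher in fed WT/Y657* mice (0.37, SE 0.08, adjusted p = 0.00968), and its fasting response differed between genotypes (-0.53, SE 0.11, adjusted p = 0.00523), the same direction as for Fbp1. That of Pfkfb1 differed in the other direction (edgeR quasi-likelihood, 0.79, SE 0.22, adjusted p = 0.0337), where 4.35% of all genes were called. The refeeding response of Pfkl also differed between genotypes (0.49, SE 0.11, adjusted p = 0.0147, same test), where 2.06% of all genes were called. The 2 contrasts of Gckr share the fed mice.

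In the cyclic AMP relay 16 of 17 listed genes were tested. Fasting raised 4 and lowered 1 in wild-type mice, and raised 3 and lowered 2 in WT/Y657* mice, a share called near the 32% and 32.9% over all genes. Adcy6, an adenylyl cyclase, rose by 1.36 and 0.74 and fell on refeeding, with values of -0.96 and -0.98. Pde4b, a phosphodiesterase that breaks down cyclic AMP, was higher in fed (0.96) and lower in fasted (-0.76) WT/Y657* mice (SE 0.20 and 0.21, adjusted p = 0.011 and 0.0128), and its fasting response differed between genotypes (-1.72, SE 0.29, adjusted p = 0.00103). Pkia, an inhibitor of protein kinase A, was higher in WT/Y657* mice when fed (1.25) and when fasted (1.06), and Gnas, the stimulatory G protein that couples Gcgr to adenylyl cyclase, was lower when fasted (-0.21).

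Of 13 partners and kinases of the CREB and CRTC proteins none was called between genotypes in any feeding state. Over all genes, 2.37% were called in fed, 13.1% in fasted and 0.0287% in refed mice. Fasting raised 1 and lowered 4 in wild-type mice, and raised 1 and lowered 2 in WT/Y657* mice, where 32% and 32.9% of all genes were called. Refeeding raised none and lowered 4 and 5, where 13.7% and 14.2% of all genes were lower. Fasting lowered Crebbp, a CREB coactivator, in both genotypes (-0.46 and -0.32). Refeeding lowered Sik2, a kinase that keeps CRTC proteins in the cytosol (-0.49 and -0.51), and Sik3 (-0.44 and -0.46). Of 6 tested immediate targets of CREB, 1 rose on fasting in each genotype, where 14.5% and 15.2% of all genes did: Per1, a clock gene, in WT/Y657* mice (1.71, SE 0.33, adjusted p = 0.000158) and Id1 in wild-type mice (2.13). Id1 was lower in fasted WT/Y657* mice (-1.43, SE 0.43, adjusted p = 0.0261), with a difference in response of -2.75 (SE 0.63, adjusted p = 0.0113). Fos, Junb and Nr4a2 fell on refeeding in wild-type mice, with values of -2.07, -1.38 and -1.27, and Dusp1 fell in WT/Y657* mice (-0.93, SE 0.33, adjusted p = 0.0305), where 13.7% and 14.2% of all genes fell.

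Of 15 other regulators of gluconeogenic genes 5 were lower in fasted WT/Y657* mice and none higher, where 6.63% of all genes were lower and 6.43% higher. They included Foxa2, a forkhead factor (-0.93), Cebpa, a leucine zipper factor (-0.51), and Nr3c1, the glucocorticoid receptor (-0.38). In fed mice 1 was lower (Foxo3, -0.31), where 1.15% of all genes were, and in refed mice none was called. Ppargc1a, the coactivator PGC1-alpha, was higher after the fast in both genotypes (0.67 and 0.99) and lower again after refeeding (-0.81 and -1.17). The fasting response of Foxa2 differed between genotypes (-1.11, SE 0.27, adjusted p = 0.0146), and so did that of Hnf4a in the other direction (0.41, SE 0.12, adjusted p = 0.0333).

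The genes whose pattern was most like that of each of the 9 were listed by Pearson's r over the 36 mice, as a description, since levels of a mouse share 1 library and its depth. Over all mice Pck1 was closest to Mfsd2a (0.868), Josd1 (0.865) and Tmtc2 (0.865), and Crtc2 had Josd1 among its nearest as well (0.739). After the mean of each group was taken off, which leaves the variation among mice of a group, G6pc was closest to Angptl4 (0.844), Ddhd2 (0.829) and Adipor2 (0.802). Fbp1 was then closest to Asl (0.79), an enzyme of the urea cycle, Qprt (0.789) and Hgd (0.775), and Mdh1 to Atp5a1 (0.86), Atp5b (0.852) and Fah (0.849), of which the first pair are subunits of ATP synthase. Among the 9 themselves, Fbp1 and Mdh1 were the most alike within groups, at 0.732.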

How the data were processed

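Liver RNA from 36 mice was prepared with the TruSeq Stranded total RNA kit and sequenced as 50-base single reads on an Illumina HiSeq. Per the labels, featureCounts was used for counting and edgeR with TMM scaling for testing, and mm9 is named as the build; the loci in the deposited table match GRCm38 coordinates for 27512 of the 36341 genes found in GENCODE M21. The alignment step is given only as Cuffdiff. Whether counting used strand is not given in the sources used here. The deposited values are estimated counts per gene, of which 3.64% of those above 0 are not whole. They were rounded, and no column of per-sample values was left without a sample (0 columns). A second table, of fitted means, was not used.

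Genes were filtered with filterByExpr, scaled by TMM and fitted with 1 coefficient per group over all 36 mice in edgeR 4.0.16 (R 4.3.3, glmQLFit with robust moderation, glmQLFTest, two-sided). Adjusted p-values are Benjamini-Hochberg values over 13945 genes, called under 0.05. A standard error is the fold change over the square root of F, and an interval is 1.96 standard errors either way. CPM values are counts scaled to the TMM-adjusted library size; marker sums use the plain total. Fits were checked on simulated data. Alternatives used limma 3.58.1, DESeq2 1.42.0, the likelihood ratio test, other scalings and filters, fewer libraries, mouse number series, and each mouse left out in turn. The series covariate was used only for comparisons without fed mice, because fed mice carried numbers of their own. It does not separate refeeding from mouse number within the high series. Blocks of fed mouse numbers and differences within series were added after the data had been seen.

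Some planned measures and 1 listed gene are not reported here. The 9 genes and the lists were chosen with earlier results of these data known. From each list up to 3 called genes with the smallest p were named per comparison, and for each of the 9 genes the 3 nearest genes of mean CPM of at least 1. Replicates are mice; depth and counting error limit Pck2 and Crtc2.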

Additional observations from a re-analysis of the deposited data

Results flagged for a closer look

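Fasting changed Fbp1 in opposite directions in the 2 genotypes, and the test of the difference itself passed (edgeR quasi-likelihood, log2 difference -1.06, SE 0.17, adjusted p = 0.000583), with all 12 fed and 12 fasted mice in the contrast. The fed WT/Y657* mice take part both in this value and in the fed genotype difference. By the same test the genotypes differed by 0.75 when fed and by -0.32 when fasted, and the fasted value was not called (adjusted p = 0.0791). Genotype and mouse number can hardly be told apart among the fed mice, and that limit holds for the difference in response as well. On the log2 CPM scale no single mouse of any group stood apart from the other 5 by Dixon's criterion, for Fbp1 or for the other 8 genes. This covered 54 groups tested, where chance alone gives about 1 in 20. On plain CPM, fed wild-type mouse ALC_WT_860 lay far above the other 5 for G6pc, at 1604 CPM with the next highest at 656 CPM.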

How the results depend on the processing

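Of 837 values recomputed under other settings, 780 kept their direction and side of the threshold, 10 fell out of the calls, 23 entered them and 24 changed sign. The cause of these changes was not tested. No paired analysis was possible because no 2 mice share a number. For the count of the 9 genes called, refeeding in wild-type mice gave 3 and rose to 5 with DESeq2 size factors, at least 10 counts in every library, DESeq2, only the libraries compared, or mouse number series as a covariate. Refed against fed wild-type mice gave 3 and rose to 5 with at least 10 counts or DESeq2 and to 6 with only the libraries compared, and fell to 2 with no filter on low counts. In WT/Y657* mice the fasting count fell from 5 to 4 with only the libraries compared, the refeeding count from 4 to 3 by the likelihood ratio test, under library size only, with no filter and with only the libraries compared, and the refed against fed count from 5 to 4 under library size only and with only the libraries compared. The genotype difference in fasting response gave 1 and rose to 2 under library size only, at least 10 counts or DESeq2. The fed genotype count fell from 1 to 0 with blocks of mouse numbers (chosen after seeing the data). Without 1 mouse the wild-type counts were 3 to 5 on refeeding and 3 to 5 for refed against fed. The WT/Y657* counts were then 5 on fasting, 3 to 4 on refeeding and 4 to 5 for refed against fed. The genotype difference in fasting response gave 1 to 2, and the fed genotype count stayed at 1. Signs changed mainly for log2 values near 0. Limma-voom gave fasting responses of 0.144 for G6pc in wild-type mice and -0.0037 for Pcx in WT/Y657* mice, and genotype differences in fasting response of -0.201 for G6pc and 0.041 for Crtc2. For Pcx in the WT/Y657* group, refeeding and refed against fed gave -0.0046 and -0.00011 with DESeq2 size factors, -0.0076 and -0.0012 with at least 10 counts, and -0.0045 and -0.00014 by DESeq2, and with no filter fasting gave -0.017 and refed against fed -0.006. Under library size only, genotype effects were 0.029 for fed Crtc2, 0.03 for fasted Gcgr, 0.012 for refed Fbp1 and 0.019 for refed Gcgr, fasting Pcx in WT/Y657* mice was -0.061, refeeding Mdh1 in wild-type mice 0.047, refed against fed Pck1 in wild-type mice 0.062, and the differences in response were -0.018 for fasting Pck2 and 0.013 for refeeding Pck1. Fasted Gcgr gave 0.0077 with at least 10 counts, where the fasting difference of Crtc2 was 0.00098, and 0.013 with only the libraries compared. Fed Mdh1 was -0.116 with blocks. Creb1 on refeeding WT/Y657* mice was also lost by the likelihood ratio test (adjusted p = 0.0632), library size only (0.431), no filter (0.133) and only the libraries compared (0.109), and refed against fed Mdh1 in those mice under library size only (0.0635) and only the libraries compared (0.0538).

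Without 1 mouse, genotype effects ran from -0.623 to 0.151 for fed G6pc, from -0.043 to 0.115 for fed Pcx, from -0.172 to 0.055 for fed Crtc2, from -0.046 to 0.015 for fasted Gcgr, from -0.246 to 0.042 for refed Pck1 and from -0.038 to 0.06 for refed Mdh1. In wild-type mice fasting G6pc ran from -0.526 to 0.248, refeeding Mdh1 from -0.066 to 0.012 and refed against fed Pck1 from -0.155 to 0.1. For WT/Y657* mice fasting gave -0.35 to 0.013 for G6pc and -0.081 to 0.108 for Pcx, refeeding -0.064 to 0.224 for Pck2 and -0.102 to 0.087 for Pcx, and refed against fed -0.069 to 0.088 for Pcx and -0.073 to 0.154 for Crtc2. Differences in fasting response ran from -0.109 to 0.132 for Pck2, from -0.419 to 0.355 for G6pc and from -0.131 to 0.096 for Crtc2, and the difference in refeeding response of Pck1 from -0.15 to 0.138.

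Over all genes, the fed genotype comparison called 330 genes, but 516 by the likelihood ratio test, 756 under library size only, 207 with no filter, 644 by DESeq2, 30 with only the fed libraries and 0 with blocks. The refed one called 4, but 18 by the likelihood ratio test and 25 by DESeq2. With no filter the differences in fasting and refeeding response fell from 607 and 287 genes to 386 and 152. Under library size only, the share of calls that were higher in WT/Y657* mice was 88.9% when fed, 64.4% when fasted and 100% when refed, against 51.2%, 49.2% and 75% with TMM (39% when fed by limma-voom), and the median over all genes when fed was 0.108 against 0.008; fed Fbp1 was then 0.845 and still called. The share of positive calls likewise moved from 46.2% to 36% for fasting in WT/Y657* mice, from 54.5% and 54.7% to 68.3% and 73.1% for refeeding and from 48.1% and 49.7% to 65.7% and 61.5% for refed against fed (wild-type first), and for the differences in fasting and refeeding response from 59.5% and 28.9% to 34.2% and 39.8%. Depth limits Pck2 and Crtc2.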
